A study of Mus musculus with 16 samples.

Results

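The nuclear genes for the subunits of the mitochondrial oxidative phosphorylation complexes were followed through the gonadal fat of 4 groups of mice. They were chosen by symbol, as the protein-coding genes whose names begin with Nduf and an a, b, c, s or v before a digit, with Uqcr, Cox4 to Cox8 or Atp5, together with Sdha, Sdhb, Sdhc and Sdhd. Cox8b and Cox7a1 were left out of the set. The rule found 82 of the 24454 genes in the count table: 35 of complex I, 4 of complex II, 8 of complex III, 18 of complex IV and 17 of complex V. Ndufa4 and Ndufa4l2 carry complex I names and were counted with complex IV, where the Ndufa4 protein resides. Of these genes, 79 had enough reads to be tested (34, 4, 8, 16 and 17 by complex), and the 3 that did not were Ndufs5, Cox6a2 and Cox7b2.

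The study asked how brain melanocortin signalling and the vagus nerve act on fat tissue when food intake is held equal. All mice were lean C57BL/6J males of 16 weeks on chow, and polyA RNA of their gonadal depots was sequenced in 4 libraries per group. Mice of the Sham_Veh and Sham_SHU groups had a sham operation, and those of the VX_Veh and VX_SHU groups a subdiaphragmatic vagotomy (sDVX), which cuts the vagal nerve supply below the diaphragm. From 4 weeks after surgery the Sham_Veh and VX_Veh mice were given vehicle into the cerebral ventricles and the Sham_SHU and VX_SHU mice SHU9119, a peptide antagonist of the central melanocortin receptors, at 1 nmol per day for 2 weeks by minipump, with isocaloric feeding in every group. Nothing in the labels ties a library to an animal of its own, and the tests therefore weigh differences against variation between libraries, which may be technical in part.

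Complex I (NADH dehydrogenase) and complex II (succinate dehydrogenase) pass electrons to ubiquinone, complex III (the cytochrome bc1 complex) passes them to cytochrome c, and complex IV (cytochrome c oxidase) passes them to oxygen. Complexes I, III and IV pump protons across the inner membrane, and complex V (ATP synthase) uses the gradient to make ATP. All complexes but II also hold subunits encoded by mitochondrial DNA, whose genes were not analysed here. The nuclear subunit genes sit on many chromosomes, and the factors NRF1, GABP (also called NRF2), YY1 and the estrogen-related receptors, with their coactivator PGC-1 alpha, are known to act on many of them. White fat holds fewer mitochondria than brown fat, and its gonadal depot is mainly made of adipocytes.

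As a description, the promoters of the members were searched for 4 short words on both strands: GCGCATGC (NRF1; GCATGCGC on the other strand), CCGGAAG (GABP; CTTCCGG), AAGATGGC (YY1; GCCATCTT) and AAGGTCA (estrogen-related receptor alpha, ERR; TGACCTT). A RefSeq promoter of GRCm38.p6, 250 bases before to 50 after the first listed start, was at hand for 66 of the 82 members. The GABP word was found in 16 of the 66 (24.2%), against 15.4% of the promoters of genes tested. The NRF1 word was found in 10 (15.2%, against 4.64%), the YY1 word in 9 (13.6%, against 4.03%) and the ERR word in 8 (12.1%, against 3.59%). At least 1 of the words was in 34 member promoters (51.5%), against 25.1% of the genes tested. Among all 27025 promoters in the table the shares were 9.12%, 2.8%, 2.88% and 4.66%, in the order GABP, NRF1, YY1 and ERR. The YY1 word was in 7 of 31 complex I promoters and 2 of 15 of complex V, and in none of the 3, 5 and 12 of complexes II, III and IV. A match of letters is a description and not a binding site. The member of each complex with most of the 4 words in the 250 bases before its start, and among equals the one with the most reads, is printed here 5′ to 3′ along the gene, with the matches in capitals. All 5 genes lie on the minus strand: Ndufs3 at chr2:90904722-90904971, Sdhd at chr9:50603850-50604099, Uqcrh at chr4:116075071-116075320, Cox6a1 at chr5:115348959-115349208 and Atp5l at chr9:44920743-44920992.
Ndufs3: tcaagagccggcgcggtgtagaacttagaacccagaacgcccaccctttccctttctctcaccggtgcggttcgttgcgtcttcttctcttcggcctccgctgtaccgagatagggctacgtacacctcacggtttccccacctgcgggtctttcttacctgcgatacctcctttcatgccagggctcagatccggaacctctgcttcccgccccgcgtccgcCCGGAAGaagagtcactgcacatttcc
Sdhd: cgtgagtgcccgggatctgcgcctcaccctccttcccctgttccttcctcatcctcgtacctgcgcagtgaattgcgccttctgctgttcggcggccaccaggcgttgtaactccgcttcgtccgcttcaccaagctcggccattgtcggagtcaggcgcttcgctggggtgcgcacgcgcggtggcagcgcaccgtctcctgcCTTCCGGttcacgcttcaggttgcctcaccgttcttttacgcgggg
Uqcrh: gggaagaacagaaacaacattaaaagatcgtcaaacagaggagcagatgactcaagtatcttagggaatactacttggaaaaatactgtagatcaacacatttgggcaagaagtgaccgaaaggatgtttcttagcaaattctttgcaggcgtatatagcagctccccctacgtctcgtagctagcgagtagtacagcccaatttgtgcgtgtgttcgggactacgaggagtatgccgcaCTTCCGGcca
Cox6a1: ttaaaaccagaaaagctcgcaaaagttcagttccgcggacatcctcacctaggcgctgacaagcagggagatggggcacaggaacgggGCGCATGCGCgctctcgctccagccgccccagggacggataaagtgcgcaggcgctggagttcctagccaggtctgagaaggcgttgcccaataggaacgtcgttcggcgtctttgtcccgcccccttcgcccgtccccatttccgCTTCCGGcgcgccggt
Atp5l: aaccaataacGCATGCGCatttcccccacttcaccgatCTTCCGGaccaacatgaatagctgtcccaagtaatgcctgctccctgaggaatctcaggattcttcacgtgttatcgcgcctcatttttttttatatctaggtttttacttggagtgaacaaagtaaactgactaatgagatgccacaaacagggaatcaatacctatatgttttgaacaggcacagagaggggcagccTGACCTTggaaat

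These 5 stretches were chosen for holding such words, and the GABP word was the commonest of the 4 among the members. In complex I it was in 4 of 31 promoters (12.9%). All 5 stretches held the GABP word. It stood in the forward sense in Ndufs3, 27 to 21 bases before the start, and in the reverse sense in the other four, at 46 to 40 bases in Sdhd, 10 to 4 in Uqcrh, 16 to 10 in Cox6a1 and 212 to 206 in Atp5l. Cox6a1 also held the NRF1 word on both strands in a single palindrome between 162 and 153 bases before the start. Atp5l held 3 of the 4 words, with the NRF1 word at 240 to 233 bases and the ERR word at 13 to 7 bases before the start.

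Libraries held 20425295 to 30889052 gene counts, of which the 79 tested subunits took 1.35% to 1.68%. Replicates were not copies of one library, since the chi-square statistic per degree of freedom between them was 11.78 to 203.9 over 24 pairs. Adipocyte markers were high in every library, at a summed 14950 to 46150 CPM (read counts scaled to library size), and were lowest in VX_Veh1 and highest in Sham_Veh3. Markers of neighbouring reproductive tissue stood out in 6 libraries, where the summed epididymis or testis list reached 500 CPM: Sham_Veh3, Sham_Veh4, Sham_SHU3, Sham_SHU4, VX_Veh4 and VX_SHU4. Epididymis markers summed to 10240 CPM in VX_Veh4 and 10990 in VX_SHU4, and testis markers to 3234 CPM in Sham_Veh4 and 1576 in Sham_SHU3. Markers of ciliated cells summed to 1341 CPM in VX_Veh1 and to 47.29 to 517.2 CPM elsewhere. In such bulk RNA fewer cells of a type and less RNA per cell cannot be told apart.

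The level of the subunits was compared between genes as CPM per kb of transcript, averaged over the 16 libraries. The catalytic beta subunit of ATP synthase, Atp5b, was highest of all at 921 CPM per kb, and Atp5g3, a gene for its membrane ring subunit c, followed in complex V at 621. The lowest tested genes of complex V were Atp5g1, another gene for the same ring subunit, at 77.4, and the delta subunit of the central stalk, Atp5d, at 158. In complex IV the ubiquitous isoform of subunit 4, Cox4i1, reached 828 and the ubiquitous subunit 8, Cox8a, 701. The median over tested genes was 301 for complex V, 300.4 for complex III, 214 for complex IV, 136 for complex II and 106 for complex I.

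Complex I genes were led by the accessory subunits Ndufb9 (332 CPM per kb) and Ndufb8 (260), with Ndufs4 (61.4), an accessory subunit needed for a stable enzyme, and Ndufc1 (47.6) at the low end. In complex II the flavoprotein Sdha stood at 244, the iron-sulfur protein Sdhb at 135 and the membrane anchors Sdhc and Sdhd at 57.4 and 137. Complex III ran from Uqcrq (407) and Uqcrh (375), a small membrane subunit and the hinge protein, down to the core proteins Uqcrc1 (143) and Uqcrc2 (141). These ranks rest on the shortest of the best-supported main transcripts. For 7 genes the longest such transcript was more than 1.5 times as long, and with it Uqcrq stood at 108 and Atp5g1 at 9.78 CPM per kb. The same step took Ndufb2 from 105 to 10.9, below Ndufc1 and lowest of complex I, and Atp5md from 223 to 29.5, below Atp5d.

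Complex IV is the complex with tissue isoforms, and in each of 7 pairs the general form was the more abundant per kb. Cox4i1 was 124 times its hypoxia-related partner Cox4i2 (6.68 CPM per kb), and Ndufa4 was 38.6 times Ndufa4l2 (11.0). Cox6a1 was 3250 times the heart and muscle form Cox6a2, which had 1 to 7 reads per library. Against the testis forms, Cox6b1 was 42.3 times Cox6b2, Cox7b 62.3 times Cox7b2 and Cox8a 98.6 times Cox8c. Libraries Sham_Veh4 and Sham_SHU3 raised the means of these 3 testis forms, and without both the ratios were 72.8, 483 and 649. Cox7a2 was 1.78 times Cox7a2l, which encodes a factor of supercomplex assembly rather than a core isoform. The muscle and brown fat forms left out of the set were low, with Cox8b at 4.92 to 25.5 CPM and Cox7a1 at 1.79 to 7.54 CPM.

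Ndufs5, an accessory subunit of complex I, was listed at 0 in all 16 libraries. At 95% confidence, and if reads of the gene could be counted, a count of 0 allows at most 3 counts, which is at most 0.151 CPM in any library after scaling. The related entry Ndufs5-ps had 1 to 5 counts per library. Counts of genes with near-identical copies are uncertain, and no level of Ndufs5 is drawn from this 0.

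The subunits were high or low together in a library, and the groups overlapped in this shared level. For each tested gene the log2 CPM of a library was set against the gene's mean over the 16 libraries, and the median of these deviations over the 79 subunits was taken. In the Sham_Veh group it was −0.21, −0.16, 0.17 and −0.23 in replicates 1 to 4. In the Sham_SHU group it was 0.25, 0.32, −0.20 and 0.04. In the VX_Veh group it was −0.26, 0.03, 0.12 and −0.02, and in the VX_SHU group 0.05, −0.02, 0.25 and −0.16.

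Each group thus held libraries on both sides of the mean, and all 4 groups overlapped. In Sham_SHU1 and Sham_SHU2, 75 of the 79 genes lay above their own mean, and in Sham_SHU3 only 4 did. In the vehicle group of sham mice the counts were 3, 1 and 2 genes in replicates 1, 2 and 4, against 71 in Sham_Veh3. The group means of the medians were −0.11 ± 0.19 (Sham_Veh), 0.10 ± 0.24 (Sham_SHU), −0.03 ± 0.16 (VX_Veh) and 0.03 ± 0.17 (VX_SHU), each SD over n = 4 libraries.

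**Figure D1:**
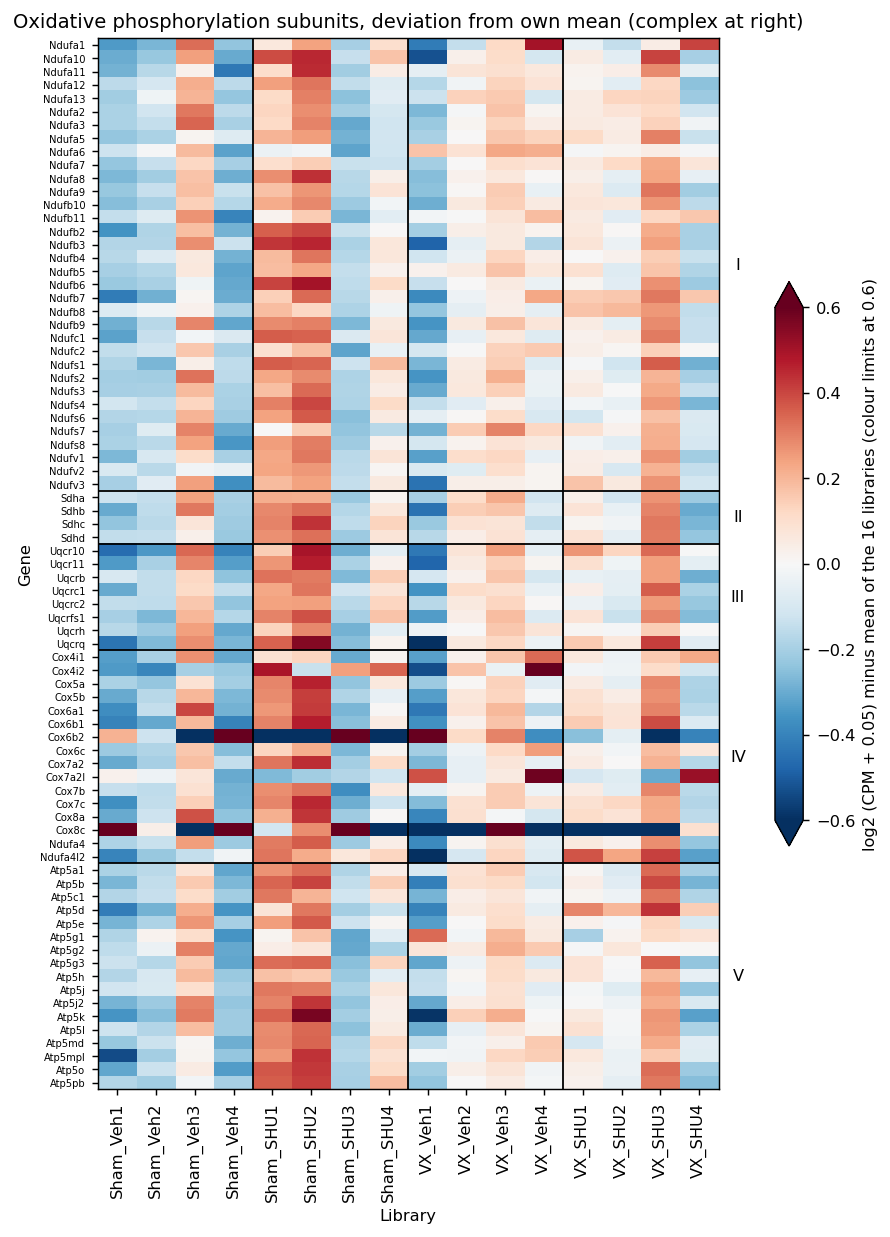
Deviation of each of the 79 tested subunit genes (rows, by complex) in each of the 16 libraries (columns, by group) from the gene's own mean, on the log2 scale with colours ending at 0.6. Most genes of a column share a colour, red in Sham_Veh3, Sham_SHU1, Sham_SHU2 and VX_SHU3 and blue in Sham_Veh1, Sham_Veh2, Sham_Veh4, Sham_SHU3, VX_Veh1 and VX_SHU4. The exceptions include Cox6b2, Cox8c, Cox4i2, Cox7a2l and Ndufa1, and are most frequent among the blue columns in VX_SHU4 (11 of 79 genes above their mean).

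The 5 complexes took the same course. In Sham_SHU2, where the median was highest, it was 0.30 for complex I, 0.34 for complex II, 0.35 for complex III, 0.34 for complex IV and 0.35 for complex V. In VX_Veh1, where it was lowest, the values were −0.23, −0.21, −0.35, −0.33 and −0.24 in the same order. The first principal component over libraries held 78.9%, 93.9%, 89.5% and 81.9% of the variance of complexes I, II, III and V. It held 37.3% of that of all 16682 genes tested. Over all subunits it held 71.7%, and over complex IV 85.3%. Genes were not scaled to equal variance, so Cox8c and Cox6b2 (SD over the 16 libraries 2.25 and 1.13) weighed most in these last values. The median within-group SD of a subunit was 0.20 on the log2 scale, and 0.08 once the library's subunit median was taken off. Genes with the smallest remaining SD were Ndufs3 (0.03), a core subunit, and Ndufb10 and Atp5l (0.04 each). Among the genes that kept an SD of their own were Cox7a2l (0.36), Cox4i2 (0.30) and Ndufa1 (0.26). Since the genes share the library, depth and scaling, these shares are descriptions.

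Gene groups of neighbouring mitochondrial pathways followed the subunits. In Sham_SHU2 the median deviation was 0.33 for the citric acid cycle (14 genes), 0.34 for fatty acid oxidation (19), 0.34 for assembly factors (50 tested) and 0.28 for the mitochondrial ribosome (78). In VX_Veh1 they stood at −0.35, −0.38, −0.22 and −0.20. The adipocyte markers (10 genes) were at 0.49 in Sham_SHU2 and at −1.06 in VX_Veh1, so the adipocyte list moved with the subunits in both libraries. In Sham_Veh4 and Sham_SHU3 it did not: adipocyte markers stood at 0.00 and −0.03, and the subunits at −0.23 and −0.20. The cytosolic ribosome (80 tested) took another course, with −0.24 in Sham_SHU1 and 0.48 in VX_Veh4. The part of adipocyte content or of the admixed tissue in the shared course of the subunits was not tested.

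**Figure D2:**
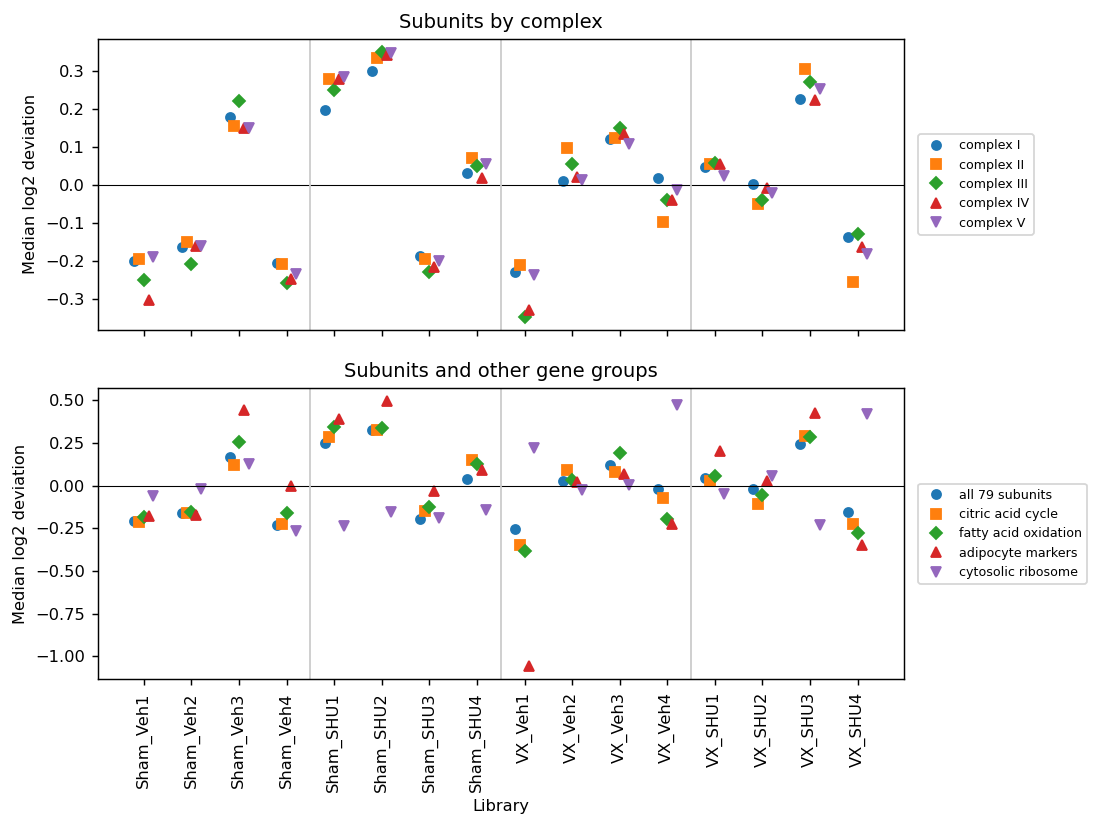
Median log2 deviation from the gene means in each of the 16 libraries (x axis, grey lines between groups), above for the 5 complexes and below for all 79 subunits and 4 other gene groups. The complexes lie close together in each library and range from −0.35 to 0.35, the citric acid cycle and fatty acid oxidation follow them, and the cytosolic ribosome is high in VX_Veh4 (0.48) and VX_SHU4 (0.42).

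The size of this shared course depended on how the libraries were scaled. The values above use TMM, which sets the bulk of genes level between libraries, with factors of 0.849 to 1.13. With library totals alone the median deviation of the subunits in Sham_SHU2 was 0.09 in place of 0.32, that in Sham_SHU1 0.08 in place of 0.25, and that in VX_Veh1 −0.08 in place of −0.26. The 10 genes with the most reads took 16.2% of the counts in Sham_SHU2, 15.8% in Sham_SHU1 and 6.91% in VX_Veh1.

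The first comparison set SHU9119 against vehicle in sham-operated mice, and asks what blocking the melanocortin receptors did with the vagus intact. No subunit passed an adjusted p of 0.05 in edgeR's quasi-likelihood test, in a comparison where 0.114% of all genes did. An unadjusted p under 0.05 was reached by 16 of 79 (20.3%), all higher under SHU9119, against 19.6% of all genes, so this share was near the background. The direction was more one-sided: the fitted difference was above 0 for 73 of 79 subunits and for 43.2% of all genes. The subunits rose and fell together in a library, and the groups overlapped in that shared level. Counts of direction, here and below, are therefore not counts of separate events, and no excess over chance is read from them. The median log2 fold change was 0.22 over the subunits (1.16-fold) and −0.06 over all genes. By complex it was 0.20 for I, 0.23 for II, 0.26 for III, 0.21 for IV and 0.24 for V. With library totals alone the median of all genes moved to −0.22 and that of the subunits to 0.05, with 57 of 79 above 0. A change of scaling shifts all genes of a comparison nearly alike, so the distance of 0.27 between the medians could hardly change. In this comparison the adipocyte markers had a median of 0.215 with 8 of 10 above 0, the ciliated cell markers one of −2.31 with 0 of 16, the mesothelium markers one of −0.71 with 0 of 9, and the testis markers one of −0.90 with 0 of 15. The 15 tested testis markers include the subunits Cox6b2 and Cox8c themselves. None of the adipocyte, ciliated cell, mesothelium or testis markers passed edgeR's test, and the part of these lists in the subunit values was not tested.

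Ndufb6, an accessory subunit of complex I, had the smallest p. Its levels were 72.7, 74.3, 83.4 and 68.7 CPM in the Sham_Veh libraries and 112, 120, 76.5 and 91.9 CPM in the Sham_SHU libraries. All but 1 of the SHU9119 libraries lay above every vehicle library and Sham_SHU3 lay among them. The log2 fold change was 0.42 ± 0.13 (SE; edgeR adjusted p = 0.123). Atp5mpl, a small membrane subunit of complex V, had 62.3, 78.6, 91.7 and 77.1 CPM under vehicle and 108, 122, 80.3 and 96.3 CPM under SHU9119. Here too Sham_SHU3 was the library inside the vehicle range, and the log2 fold change was 0.40 ± 0.13 (SE; edgeR adjusted p = 0.13).

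The libraries of the groups did not overlap for 2 subunits (2.53%, against 10.4% of all genes), and both are isoforms of complex IV genes linked to low oxygen. Cox4i2 was at 3.74, 3.60, 4.13 and 4.06 CPM under vehicle and at 6.69, 4.32, 5.63 and 6.05 CPM under SHU9119. The nearest libraries, Sham_Veh3 and Sham_SHU2, held 100 and 105 reads of the gene. Ndufa4l2 was at 7.67, 8.63, 9.13 and 9.95 CPM under vehicle and at 12.6, 11.8, 10.6 and 11.0 CPM under SHU9119. With library totals alone both genes overlapped: Sham_SHU2 then stood at 3.67 CPM for Cox4i2, below all 4 vehicle libraries, and at 9.99 CPM for Ndufa4l2, below Sham_Veh4 (10.6 CPM). Their log2 fold changes were 0.55 ± 0.22 (SE; edgeR adjusted p = 0.195) and 0.38 ± 0.17 (SE; edgeR adjusted p = 0.248). The genes with the smallest p below 0 were Cox6b2 and Cox8c, whose levels were highest in 2 libraries and are given further on. Other subunits with fitted values below 0 were Ndufa6, Ndufs7, Cox7a2l and Atp5g2, at −0.07, −0.004, −0.14 and −0.06.

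The count of 0 was tied to the tool and to 1 library. DESeq2 called Ndufb6 and Atp5mpl (2 of 79, against 8.74% of all genes) and limma-voom with sample weights called 44 of 79, all higher, against 23.2% of all genes. Without Sham_SHU3, edgeR called 4 of 79, all higher, among them Ndufb6 (adjusted p = 0.0242) and Atp5mpl (adjusted p = 0.0339), against 5.83% of all genes. Without the 6 libraries with epididymis or testis markers, which leaves 2 libraries in each sham group, the median log2 fold change was 0.49 and edgeR called none of the subunits and 0% of all genes.

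**Figure D3:**
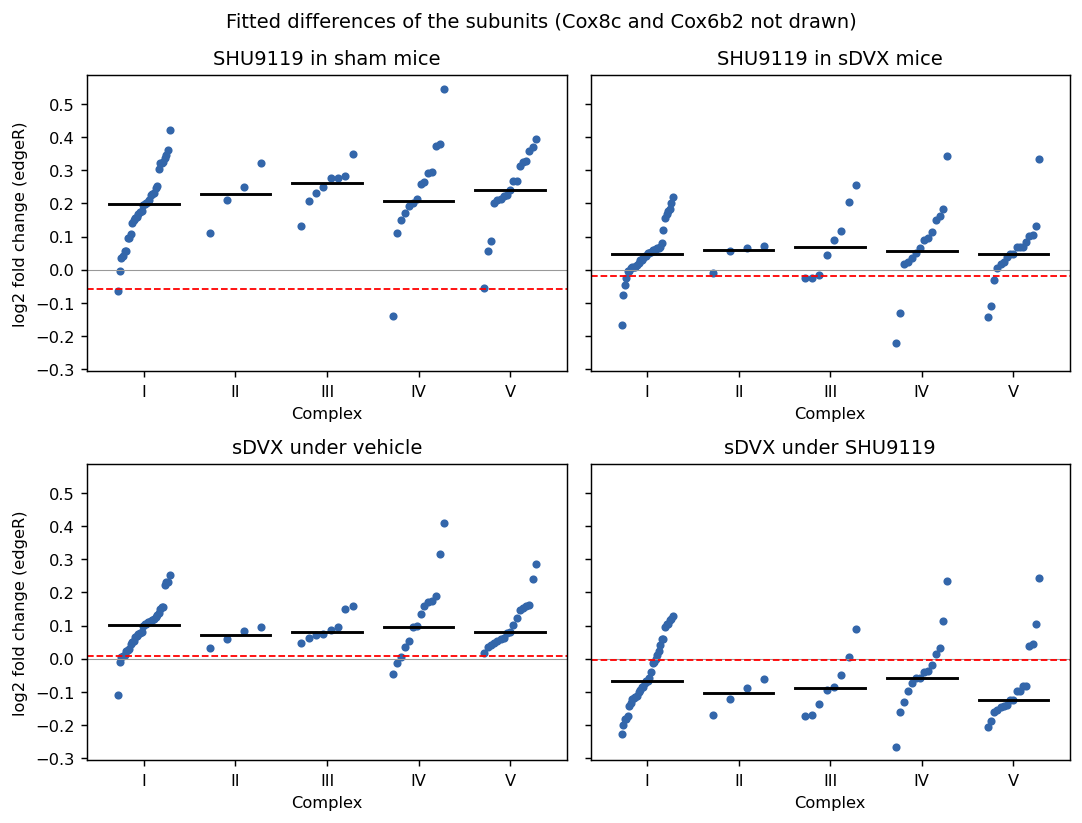
Log2 fold change from edgeR for each tested subunit (points, sorted within each complex) in 4 comparisons, with the complex median (black bar), the median of all genes (red dashed line) and Cox8c and Cox6b2 left out of the drawing. In the SHU9119 comparison of sham mice the complex medians lie between 0.20 and 0.26, and in the other panels between −0.12 and 0.10.

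After vagotomy the same contrast gave smaller differences. With SHU9119 against vehicle in sDVX mice no subunit passed edgeR's test (0.00599% of all genes did) or that of DESeq2 (0.486%) or limma-voom (0.12%), and 1 of 79 had an unadjusted p under 0.05, against 11.6% of all genes. The median log2 fold change was 0.05 over the subunits and −0.02 over all genes, with 62 of 79 above 0 (46.9% of all genes). It turned to −0.03 without VX_SHU3, and to −0.025 with library totals alone, where the median of all genes was −0.10. The gene with the smallest p was Atp5d, at 109.9, 150.6, 155.2 and 139.5 CPM in the VX_Veh libraries and 178, 166, 196 and 160.4 CPM in the VX_SHU libraries. The groups did not overlap for Atp5d, and its log2 fold change was 0.34 ± 0.16 (SE; edgeR adjusted p = 0.428). Ndufb8, next in p, had a log2 fold change of 0.20 ± 0.10 (SE; edgeR adjusted p = 0.441).

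Ndufa6, an accessory subunit of complex I, was the other gene without overlap, which makes 2 of 79 (2.53%), against 4.95% of all genes. It was at 99.8, 94.3, 104 and 103 CPM in the VX_Veh libraries and at 88.2, 89.7, 91.4 and 88.3 CPM in the VX_SHU libraries. In the sham mice it stood at 81.5, 88.2, 101 and 71.1 CPM under vehicle and 86.6, 87.6, 71.2 and 81.6 CPM under SHU9119. Every VX_SHU library was thus below every VX_Veh library and above every Sham_SHU library. The SHU9119 difference in sDVX mice was −0.17 ± 0.09 in log2 units (SE; edgeR adjusted p = 0.46), and Ndufa6 was below 0 in both SHU9119 comparisons.

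Whether the response to SHU9119 differed between sDVX and sham mice was tested by the interaction of surgery and infusion. No subunit passed edgeR (0% of all genes did), DESeq2 (0.0493%) or limma-voom (0.0779%). An unadjusted p under 0.05 was reached by 3 of 79, against 4.76% of all genes. The median interaction was −0.16 over the subunits, with 72 of 79 below 0, and −0.01 over all genes, 51.9% of which were below 0. Atp5mpl had an interaction of −0.43 ± 0.18 (SE) and Cox4i2 one of −0.68 ± 0.30 (SE), and Atp5d and Ndufb8 had the smallest p among those above 0, at 0.12 ± 0.22 and 0.10 ± 0.14 (SE); edgeR's adjusted p was 0.999 for each. The sign for Atp5d turned with limma-voom (−0.093), without the 6 libraries with epididymis or testis markers (−0.15) and without Sham_Veh3 (−0.045). The subunit median was −0.35 without the 6 libraries and −0.079 without Sham_SHU2. The larger subunit difference in sham mice was therefore not shown to differ from that in sDVX mice for any gene.

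Averaged over both surgeries, SHU9119 went with a median log2 fold change of 0.15 over the subunits and −0.04 over all genes, with 72 of 79 above 0 (44.6% of all genes). No subunit passed edgeR's test, against 1.87% of all genes, and 7 of 79 had an unadjusted p under 0.05, against 28.5%. DESeq2 called 3 (17.6% of all genes) and limma-voom 10 (23.4%), all higher. The complex I subunit Ndufb7 was at 44.2, 48.5, 59.6 and 48.2 CPM in Sham_Veh and 65.3, 74.9, 52.8 and 60.4 CPM in Sham_SHU. In the sDVX mice it was at 45.5, 58.0, 60.9 and 69.5 CPM under vehicle and 65.9, 66.3, 73.8 and 66.4 CPM under SHU9119. Means were higher under SHU9119 in both surgeries while the libraries overlapped in both. The log2 fold change was 0.28 ± 0.09 (SE; edgeR adjusted p = 0.0899; DESeq2 adjusted p = 0.0321).

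Ndufa4l2 was close behind, with 6.66, 9.42, 11.0 and 9.57 CPM in VX_Veh and 13.1, 11.9, 13.5 and 8.05 CPM in VX_SHU beside the sham values above. Its averaged log2 fold change was 0.36 ± 0.12 (SE; edgeR adjusted p = 0.0921; DESeq2 adjusted p = 0.04). Within the sDVX mice VX_SHU4 was the only SHU9119 library inside the vehicle range. Across surgeries Sham_SHU3 (10.6 CPM) also lay below VX_Veh3 (11.0 CPM). Ndufc1, the third gene DESeq2 called, had a log2 fold change of 0.24 (edgeR adjusted p = 0.0984). Below 0, Ndufa6 and Cox6b2 had the smallest p, at −0.12 ± 0.07 and −0.98 ± 0.60 (SE; edgeR adjusted p = 0.259 and 0.296). The value for Cox6b2 ran from −1.65 without Sham_SHU3 to −0.16 without Sham_Veh4, and without the 6 libraries with epididymis or testis markers it was −0.99 (edgeR adjusted p = 0.0417). In the libraries then kept, ciliated cell markers were lower under SHU9119 (values below), and their part in this difference was not tested.

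The averaged count depended on which libraries entered. Without the 6 libraries with epididymis or testis markers edgeR called 44 of 79 subunits, 43 of them higher, against 24.4% of all genes. Without Sham_SHU3 alone it called 3, all higher, against 9.58% of all genes. With library totals alone it called Ndufa6, which was lower (log2 fold change −0.24, adjusted p = 0.0326), against 2.91% of all genes, and the median of all genes was then −0.15 and that of the subunits 0.025. The 6 libraries hold subunit medians on both sides of 0, among them Sham_Veh3 (0.17) and Sham_SHU3 (−0.20), the library of each sham group that went against the rest. Leaving them out keeps 2 libraries in each sham group. In the kept libraries ciliated cell markers summed to 348.8 to 1341 CPM under vehicle and 52.3 to 260.8 CPM under SHU9119. Mesothelium markers summed to 270.8 to 670.5 CPM and 39.04 to 226.4 CPM. Both lists thus split by infusion there, and their part in the 44 calls was not tested.

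**Figure D4:**
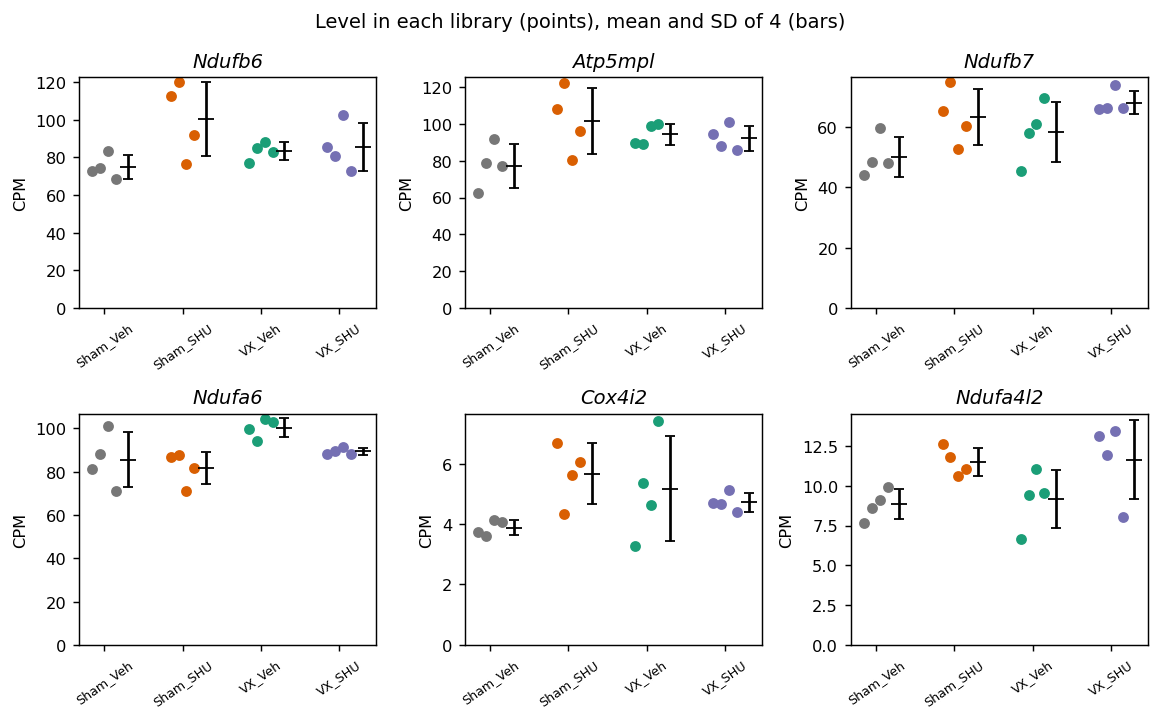
CPM of 6 subunit genes in each library (points, by group) with mean and SD over 4 libraries beside them, on axes that start at 0. With this TMM scaling Cox4i2 and Ndufa4l2 show no overlap between Sham_Veh and Sham_SHU (with library totals alone they overlap), Ndufa6 is highest in VX_Veh (94.3 to 104 CPM) and Ndufb6 and Atp5mpl overlap between all groups.

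Vagotomy by itself was compared under vehicle and under SHU9119. Under vehicle no subunit passed edgeR (0% of all genes did), DESeq2 (0.0678%) or limma-voom (0.024%), and 4 of 79 had an unadjusted p under 0.05, against 8% of all genes. The median log2 fold change was 0.085 over the subunits, with 73 of 79 above 0 (51.5% of all genes), and 0.01 over all genes. No subunit was free of overlap between the groups (3.09% of all genes were). Ndufa6 and Ndufb5, an accessory subunit too, had the smallest p among those above 0, at 0.23 ± 0.09 and 0.23 ± 0.10 (SE; edgeR adjusted p = 0.608 for both). Under SHU9119 no subunit passed edgeR (0% of all genes did), DESeq2 (0.574%) or limma-voom (4.67%), none had an unadjusted p under 0.05 (10.7% of all genes did), and the median was −0.085, with 22 of 79 above 0 (49.1% of all genes). With library totals alone that median was 0.01, and the median of all genes 0.09.

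Ndufa6 alone (1.27%, against 5.64% of all genes) had no overlap between VX_SHU and Sham_SHU, with a log2 fold change of 0.13 ± 0.09 (SE; edgeR adjusted p = 0.6). Atp5d and Cox7a2l were the genes above 0 with the smallest p in that comparison, at 0.24 ± 0.16 and 0.24 ± 0.17 (SE; edgeR adjusted p = 0.55 and 0.598), and Ndufb6 was at −0.23 ± 0.13 (SE; edgeR adjusted p = 0.509). Averaged over infusions, the sDVX difference had a median of −0.001 over the subunits with 38 of 79 above 0 (50.3% of all genes). EdgeR called none (0% of all genes), nor did limma-voom (0.671%), and 3 of 79 had an unadjusted p under 0.05, against 16% of all genes. DESeq2 called Cox8c alone, against 2.52% of all genes. Ndufa6 had an averaged log2 fold change of 0.18 ± 0.07 (SE; edgeR adjusted p = 0.235).

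Complex II, the smallest set, shows the size of these differences against the spread. Sdha was at 681 ± 101 CPM in Sham_Veh, 736 ± 102 in Sham_SHU, 709.7 ± 96.1 in VX_Veh and 705 ± 106 in VX_SHU (SD, n = 4). Sdhc was at 165 ± 16.7, 206 ± 34.5, 174 ± 18.9 and 183 ± 31.2 CPM in the same order, and its SHU9119 difference in sham mice was 0.32 ± 0.14 in log2 units (SE; edgeR adjusted p = 0.229). Sdhb was at 145 ± 30.0, 168 ± 26.0, 149 ± 27.2 and 155 ± 26.7 CPM, and Sdhd at 154 ± 11.8, 183 ± 30.1, 165 ± 12.5 and 172 ± 27.8 CPM. For all 4 genes the mean was highest in Sham_SHU and lowest in Sham_Veh, and the groups overlapped. The median biological coefficient of variation was 15.5% for the subunits and 22.8% for all genes.

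Cox7a2l did not follow its complex. It was at 164, 158, 170 and 131 CPM in Sham_Veh, 134, 140, 143 and 148 CPM in Sham_SHU, 210.1, 156, 167 and 242 CPM in VX_Veh, and 150.3, 153, 131 and 231 CPM in VX_SHU. The 3 high libraries, VX_Veh1, VX_Veh4 and VX_SHU4, are the ones in which the cytosolic ribosome list was highest (median deviations 0.22, 0.48 and 0.42). Epididymis markers summed to 19.7, 10240 and 10990 CPM and ciliated cell markers to 1341, 47.3 and 65.8 CPM in those 3 libraries, and their part in the level of Cox7a2l was not tested. Its averaged sDVX difference was 0.28 ± 0.12 in log2 units (SE; edgeR adjusted p = 0.281), and it was 0.18 without VX_SHU4. Ndufa1, an X-linked complex I subunit, was also highest in VX_Veh4 (128 CPM) and VX_SHU4 (119.8 CPM) but lowest in VX_Veh1 (67.5 CPM).

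The testis isoforms of complex IV were highest in 2 libraries of the sham groups. Cox8c was at 33.0 CPM in Sham_Veh4 and 11.99 CPM in Sham_SHU3, and at 0 to 2.02 CPM in the other 14 libraries. Cox6b2 was at 27.6 and 11.6 CPM in those 2 libraries and at 1.36 to 7.75 CPM elsewhere, and Cox7b2 at 13.3 and 4.97 CPM against 0 to 0.725 CPM. The 7.75 CPM of Cox6b2 was in VX_Veh1, where testis markers summed to 125.6 CPM and ciliated cell markers were highest (1341 CPM). The part of ciliated cells in the level of Cox6b2 was not tested. Sham_Veh4 and Sham_SHU3 also had the highest sums of the 13 testis and sperm markers, a list from which these isoforms were left out. None of the 13 was at 0 in every library. The sDVX difference of Cox8c, −3.87 ± 1.24 in log2 units averaged over infusions (SE; edgeR adjusted p = 0.224), and those of Cox6b2 rest on these libraries: without Sham_Veh4 the Cox8c value was −2.20, and Cox6b2 under vehicle went from −0.99 to 0.61. The same step turned the SHU9119 difference in sham mice from −1.42 to 1.93 for Cox8c and from −1.15 to 0.46 for Cox6b2.

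**Figure D5:**
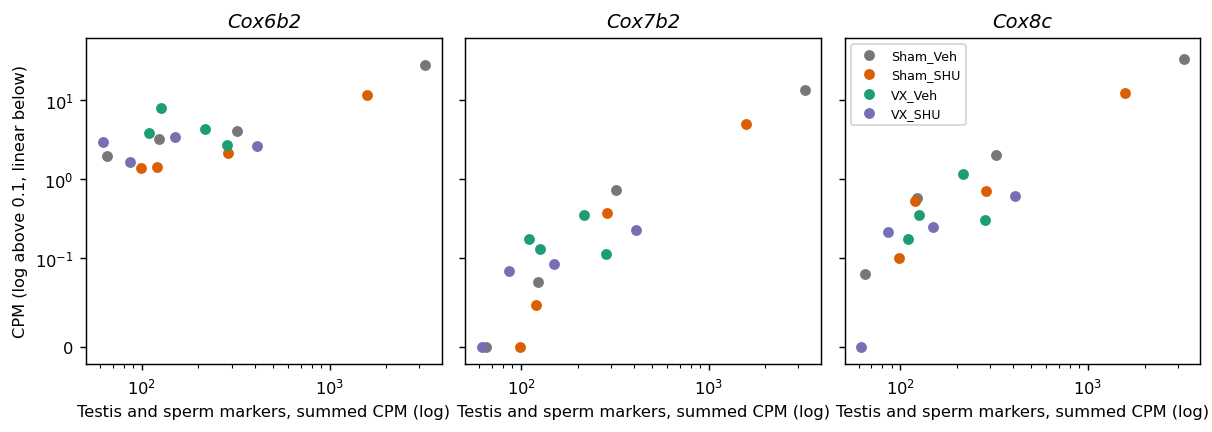
CPM of the 3 testis isoforms (y axis, log above 0.1 and linear below) against the summed CPM of 13 testis and sperm markers (x axis, log) in the 16 libraries, coloured by group. Sham_Veh4 (3234 CPM of markers) and Sham_SHU3 (1576 CPM) lie apart at the upper right for all 3 genes.

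Other genes of respiration were read from lists of their own. In every comparison but one, edgeR called none of the assembly factors, citric acid cycle, fatty acid oxidation or mitochondrial ribosome genes, nor any of the 19 genes of mobile carriers and supercomplex factors or the 17 regulators of mitochondrial gene expression. The exception was SHU9119 averaged over surgeries, where Higd1a, a small inner membrane protein tied to complex IV, rose (log2 fold change 0.41 ± 0.10, SE; edgeR adjusted p = 0.0493) and the mitochondrial ribosomal gene Mrps6 rose (0.47 ± 0.10, SE; adjusted p = 0.0384). These are 1 of 19 and 1 of 78 genes of their lists, where 1.87% of all genes were called. In that comparison 45 of 50 assembly factors, 11 of 14 citric acid cycle genes, 18 of 19 fatty acid oxidation genes and 68 of 78 mitochondrial ribosome genes were above 0, against 44.6% of all genes, with medians of 0.17, 0.18, 0.14 and 0.13. Of the cytosolic ribosome 7 of 80 were, with a median of −0.13. The 10 adipocyte markers had a median of 0.26 there, the 16 ciliated cell markers one of −2.58 and the 9 mesothelium markers one of −0.46. All 10 macrophage and all 10 endothelium markers were above 0, with medians of 0.15 and 0.16. Of 8 stroma markers Col1a1, Col3a1 and Dpt rose (3 of 8, median of the list 0.08). The part of these cell types in the subunit values was not tested.

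Cytochrome c, which carries electrons from complex III to complex IV, had, like the 4 genes of complex II, its highest mean in Sham_SHU and its lowest in Sham_Veh. Its somatic gene Cycs was at 206, 191, 231 and 198 CPM in Sham_Veh and 396, 380, 228 and 323 CPM in Sham_SHU, and at 240 ± 34.0 and 265 ± 62.6 CPM in VX_Veh and VX_SHU (SD, n = 4). Sham_SHU3 was again the SHU9119 library inside the vehicle range, and the difference in sham mice was 0.68 ± 0.18 in log2 units (SE; edgeR adjusted p = 0.0895). Ndufab1, the mitochondrial acyl carrier protein that also sits in complex I and is outside the symbol rule, differed by 0.35 ± 0.18 in sham mice (SE; edgeR adjusted p = 0.288).

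The regulators did not share a direction. Esrra, the estrogen-related receptor alpha, had an averaged SHU9119 difference of 0.23 ± 0.07 (SE; edgeR adjusted p = 0.0712). Ppargc1a, which encodes PGC-1 alpha, had one of −0.77 ± 0.25 (SE; edgeR adjusted p = 0.0828), with 42.3 CPM in VX_Veh1 and 7.45 to 20.9 CPM in the other libraries. Tfam, the packaging and transcription factor of mitochondrial DNA, had one of −0.10 ± 0.09 (SE; edgeR adjusted p = 0.452). Over the 17 regulators 8 were above 0, with a median of −0.03.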

How the data were processed

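PolyA RNA of 16 mouse gonadal fat libraries, 4 in each of 4 groups, was read from 1 table of raw counts per gene, deposited by the authors. The submitters' processing notes name bcl2fastq, TopHat, edgeR and mm10; how reads were counted, and on which strand, is not given in the sources used here. NCBI gene numbers were matched to symbols (24374 of 24454); the other 80 held 0.557% to 1.24% of counts. Groups came from the labels. Totals of 20425295 to 30889052 counts limit precision little for subunits other than Cox4i2, Ndufa4l2 and the testis and muscle isoforms.

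The members and lists were chosen with earlier results of these data known. One edgeR 4.0.16 quasi-likelihood fit (R 4.3.3; TMM, filterByExpr, robust, 1 mean per group, 12 residual degrees of freedom) covered 16682 genes, with Benjamini-Hochberg adjustment over all of them and a threshold of 0.05; the code was tested on simulated data. Log2 CPM used a prior count of 2. Alternatives were DESeq2 1.42.0, limma 3.58.1 (voom with sample weights), DESeq2 size factors, library totals, no filter, non-robust dispersion, a replicate block, only the groups compared, libraries left out singly, and leaving out 6 with high reproductive tissue markers. Transcript lengths came from GENCODE, promoters from RefSeq. Members named per comparison are the 2 with the smallest p in each direction, plus the 2 highest and 2 lowest per complex, the isoform pairs, the Sdh genes and untested members; Ndufa1, Ndufs3, Ndufb10, Ndufc1, Atp5l and the genes printed or listed for a direction were added after values were seen. The symbols Ndufb1, Ndufb4b and Ndufb4c also match the pattern of names but were not among the genes of the count table read here.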

Additional observations from a re-analysis of the deposited data

Results flagged for a closer look

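In groups of 4 libraries a single library can lie far from the other three. Over 116 such groups (29 genes or complexes in 4 groups) 11 had a gap to the nearest library beyond Dixon's 95% critical share of the group's range. Chance flags about 1 in 20 independent groups. These groups share the same libraries and the complexes contain the genes, so the 11 are not separate events and no excess over chance is read from them. In Sham_Veh4 Cox6b2 was at 27.58 CPM (the others 1.94 to 4.05) and Cox8c at 33 CPM (0.0826 to 2.02), and in Sham_SHU3 Cox6b2 was at 11.62 CPM (1.36 to 2.10) and Cox8c at 11.99 CPM (0.101 to 0.700). These are the libraries with the highest testis marker sums. Sham_Veh3 stood above the rest of its group in Sdha (831.2 CPM against 614 to 644), Cox6b1 (325.3 CPM against 215 to 229) and Ndufa4 (304.7 CPM against 220.5 to 234). The median deviation of the complexes in that library was 0.18 for complex I, 0.157 for complex II and 0.223 for complex III, against values of −0.26 to −0.15 in the rest of its group. Sham_Veh3 has the highest adipocyte marker sum, 46150 CPM. Within its group it also has the highest epididymis sum (660.6 CPM) and the lowest sums of ciliated cell (61.25 CPM) and testis markers (64.97 CPM). The part of these tissues in the values of Sham_Veh3 was not tested. In VX_SHU3 Ndufb7 was at 73.78 CPM, against 65.9 to 66.4 CPM.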

How the results depend on the processing

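Under edgeR the counts of subunits past the threshold were 0 in all 7 comparisons, and stayed 0 with DESeq2 size factors, no filter, non-robust dispersion, the groups compared alone and the replicate block; the cause of the shifts that follow was not tested. For SHU9119 in sham mice DESeq2 gave 2, limma-voom 44, and leaving out single libraries 0 to 4; for SHU9119 averaged over surgeries the values were 3, 10 and 0 to 3, with 44 without the 6 libraries with epididymis or testis markers and 1 with library totals alone, a setting chosen after the data were seen. For sDVX averaged over infusions DESeq2 gave 1 (Cox8c). Without the 6 libraries the subunit median was 0.488 for SHU9119 in sham mice and −0.353 for the interaction. Leaving out single libraries gave medians of 0.155 to 0.325 (SHU9119 in sham mice), −0.031 to 0.119 (in sDVX mice), 0.038 to 0.191 (sDVX under vehicle), −0.163 to −0.011 (under SHU9119), −0.271 to −0.079 (interaction), 0.106 to 0.202 and −0.043 to 0.056 (the averages for SHU9119 and sDVX). Values that changed sign were Cox6b2 in sDVX under vehicle (0.000496 with limma-voom, 0.542 without the 6 libraries, −1.35 to 0.605 over single libraries left out) and averaged over infusions (0.24 and 0.576 in the first 2 settings), Cox6b2 and Cox8c for SHU9119 in sham mice (−2.53 to 0.461 and −4.36 to 1.93 over single libraries left out, reversed without Sham_Veh4), and the Atp5d interaction (−0.093 with limma-voom, −0.154 without the 6 libraries, −0.045 to 0.233 over single libraries left out). Not every pair of libraries with the same replicate number deviated together: 13 of 24 had a correlation above 0.1 (range −0.689 to 0.676; median 0.179, against −0.0251 for different numbers), and 5 of 16 libraries correlated best with their own number, so the numbers were not taken to pair the samples. With the replicate block the subunit medians were 0.232, 0.047, 0.087, −0.096, −0.174, 0.151 and −0.006, in the order of the comparisons above. Depth limits Cox6b2, Cox8c and Cox4i2 most among the tested subunits, with as few as 27, 0 and 75 reads in a library, and then Ndufa4l2, with 153.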
